A study of Mus musculus with 17 samples.

Results

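Genes of the major histocompatibility complex (MHC) class II pathway were examined in 2 kinds of mouse macrophage by polyA RNA-seq. The members were 10 genes, taken by symbol alone from a table of 24453 gene models: the chain genes H2-Aa, H2-Ab1, H2-Eb1 and H2-Ea-ps, the invariant chain gene Cd74, the peptide-editing genes H2-DMa, H2-DMb1, H2-DMb2 and H2-Oa, and the regulator Ciita. All 10 were in the table. Levels are RPKM, that is, reads scaled by exon length and by the depth of the library, which allows different genes to be compared per length.

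MHC class II molecules are pairs of an alpha and a beta chain that present peptides from the endosome to CD4+ T cells. The chains assemble on the invariant chain in the endoplasmic reticulum, endosomal proteases cut the invariant chain away, and H2-DM then exchanges its last fragment for a peptide, while H2-O restrains H2-DM. The master regulator CIITA switches these genes on together by joining a complex of RFX, CREB and NF-Y proteins on short promoter elements, and macrophages keep CIITA low until interferon gamma induces it.

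The study compared macrophages that differ in single AP-1 transcription factors, and primary macrophages with and without a bacterial signal. Immortalised bone marrow-derived macrophages (iBMDMs) are a line of C57Bl/6EiJ cells that mutant BRAF together with Myc had made immortal. Per the study's methods they carried Cas9 and were infected with guides against Atf3 (Atf3KO), Jun (JunKO) or Jund (JunDKO), or with a scramble control (Scramble, titled zsGreen), and sorted as pools of infected cells rather than described as clones. All 4 groups held 2 libraries labelled vehicle. Thioglycollate-elicited macrophages (TGEMs) are primary cells flushed from the peritoneum, here of C57Bl/6EiJ or Balb/cJ mice, given vehicle or Kdo2 lipid A (KLA), which activates TLR4, for 1 h. There was 1 library of each treatment for C57Bl/6EiJ TGEMs, while for Balb/cJ TGEMs there were 1 with vehicle and 2 with KLA. The strains carry different MHC haplotypes, b in C57Bl/6 and d in Balb/c. As background, the b haplotype lacks the promoter of the E alpha gene, so that C57Bl/6 mice make no E alpha chain and show no I-E molecule at the surface, and for this reason the annotation lists the gene as a pseudogene, H2-Ea-ps.

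The libraries held from 1553296 to 18444662 reads, as read from the steps between low RPKM values, so that a gene at 0 in a shallow library may still be transcribed at a low level. Of the targeted genes only Jund was lower in the libraries named for it. Atf3 stood at 154 and 169 RPKM in Atf3KO libraries against 80.7 and 77.4 in Scramble, Jun 26.2 and 20.5 in JunKO against 17.6 and 18.5, and Jund 6.94 and 6.07 in JunDKO against 9.19 and 8.33. RNA can still be made from an edited gene. Exonic RPKM therefore does not check the edit, and the groups are named by label here. The paper itself checked knockout efficiency by western blotting. It also reports a loss of Jun ChIP-seq signal in its Jun knockout line. The title of Atf3KO replicate 2 gives a later date than those of the other 7 iBMDM libraries. All libraries are labelled male, yet the 5 TGEM libraries held 19.2 to 28.1 RPKM of Xist and at most 0.749 RPKM summed over 4 Y-linked genes, where the 8 iBMDM libraries held at most 0.029 and at least 30.2 RPKM. This holds for every TGEM library, so no comparison with TGEMs can be given without it. Macrophage identity was checked with 6 markers (Adgre1, Csf1r, Cd68, Itgam, Mertk and Fcgr1), all of which had reads in both cell types, at a summed level of 1860 to 2430 RPKM in iBMDMs and 1570 to 4220 in TGEMs. The sum hides opposite moves. Cd68 measured 353 to 705 RPKM in iBMDMs and 1400 to 4050 in TGEMs, while Adgre1 measured 424 to 744 and 31.1 to 72.3. Where nothing says that libraries of a group came from separate cultures or animals, p-values measure the spread between these libraries only, which may be technical.

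Of the members, 8 lie within 252.3 kb of chromosome 17 (mm10, the GRCm38 build). In the order of the map these are H2-Oa (34092379 to 34095234, plus strand), H2-DMa (34122832 to 34139101, plus), H2-DMb2 (34145416 to 34151095, plus), H2-DMb1 (34153191 to 34160229, plus), H2-Ab1 (34263227 to 34269418, plus), H2-Aa (34282751 to 34287771, minus), H2-Eb1 (34305867 to 34316674, plus) and H2-Ea-ps (34342212 to 34344645, minus). The beta chain genes of H2-DM are near-copies: of the 50-base words in the exons of H2-DMb1 29.9% also occur in H2-DMb2, and 27.1% the other way round, so that reads can be shared between them and the level of each is uncertain to that extent.

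Promoter sequence is shown for 5 members because their elements are the sites at which the CIITA complex is known to work. The set of RefSeq promoters used here (GRCm38.p6) covered 6 of the 10 members, H2-Oa, H2-DMa, H2-DMb2, H2-DMb1, H2-Aa and H2-Eb1. It did not hold H2-Ab1, H2-Ea-ps, Cd74 and Ciita. Printed are the 150 bases before the transcript start, 5′ to 3′ on the strand of the gene. Capitals mark 3 motifs searched on both strands after the sequences had been seen: an X-type motif (AAC, any base, then GATGATG), a Y-type motif that holds the CCAAT box in reverse (TGATTGG), and the cyclic AMP response element (TGACGTCA). None of these overlap here.
H2-DMb2 (chr17:34145099-34145248, plus strand): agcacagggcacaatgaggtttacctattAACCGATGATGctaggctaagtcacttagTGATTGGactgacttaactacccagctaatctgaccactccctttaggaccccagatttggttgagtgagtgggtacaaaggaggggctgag
H2-DMb1 (chr17:34153041-34153190, plus strand): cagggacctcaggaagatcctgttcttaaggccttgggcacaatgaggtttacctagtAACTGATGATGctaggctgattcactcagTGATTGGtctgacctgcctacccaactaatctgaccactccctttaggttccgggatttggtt
H2-Eb1 (chr17:34305717-34305866, plus strand): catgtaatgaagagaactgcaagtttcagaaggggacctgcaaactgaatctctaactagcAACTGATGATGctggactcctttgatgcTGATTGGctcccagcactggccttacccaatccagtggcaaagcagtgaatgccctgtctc
H2-Aa (chr17:34287824-34287973, minus strand): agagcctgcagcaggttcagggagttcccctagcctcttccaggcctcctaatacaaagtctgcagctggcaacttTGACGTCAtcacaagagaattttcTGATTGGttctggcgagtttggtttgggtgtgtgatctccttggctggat
H2-Oa (chr17:34092229-34092378, plus strand): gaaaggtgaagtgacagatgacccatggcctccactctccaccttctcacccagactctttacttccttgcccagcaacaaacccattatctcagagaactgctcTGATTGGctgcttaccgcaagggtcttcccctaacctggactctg

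The X-type and Y-type motifs stood 18 bases apart in H2-DMb1 and H2-DMb2 and 17 bases apart in H2-Eb1. H2-Aa held the cyclic AMP response element 16 bases before its Y-type motif, and H2-Oa the Y-type motif alone. H2-DMa, for which RefSeq gave 2 starts, held none of the 3 in either window. Among 32851 promoters of the same length the X-type motif occurred in 11 (0.0335%), the Y-type motif in 5.71% and the cyclic AMP response element in 1.36%. Both the X-type and the Y-type motif occurred in 5 promoters (0.0152%), of which 1 each belonged to H2-DMb1, H2-DMb2 and H2-Eb1 and 2 to a gene outside the pathway, Nubp2. A match is only a description of these letters. The RefSeq starts of H2-Aa and H2-DMb2 differ from the starts of the models in the RPKM table.

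Of the chain genes, H2-Aa, H2-Ab1 and H2-Eb1 separated the cell types. H2-Aa, the alpha chain of I-A, measured 92.3 and 82.8 RPKM in the C57Bl/6EiJ vehicle and KLA TGEMs, 52.3 in Balb/cJ vehicle TGEMs and 58.5 and 73.8 in the Balb/cJ KLA libraries. In iBMDMs it had no read in 5 of 8 libraries, and measured 0.26 RPKM in Atf3KO replicate 2 and 1.82 and 0.613 in JunDKO. The lowest TGEM library therefore lay far above the highest iBMDM library. H2-Ab1, its beta chain partner, measured 88.4 and 65.9 RPKM in C57Bl/6EiJ TGEMs and 62.3, 38.7 and 52.3 in those of Balb/cJ, and at most 1.98 in iBMDMs. H2-Eb1, the beta chain of I-E, measured 43.3 and 42.9 RPKM in C57Bl/6EiJ TGEMs, 11.3, 23.6 and 28.1 in Balb/cJ TGEMs and at most 2.71 in iBMDMs. Again no iBMDM library reached a TGEM library.

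Cd74 broke this division. The invariant chain gene, which lies outside the class II region, measured between 50.8 and 155 RPKM in the 8 iBMDM libraries, where the chain genes were near 0, and 126 to 256 RPKM in TGEMs. The ranges overlapped in Atf3KO replicate 2, at 155 RPKM, which exceeded the Balb/cJ vehicle library. In the deepest library, JunDKO replicate 2, Cd74 stood at 82.9 times the summed level of H2-Aa and H2-Ab1. That sum rests on 12 reads of H2-Aa, and the other iBMDM libraries had too few reads for a ratio. In the 5 TGEM libraries Cd74 stood at 1.10 to 1.69 times the sum. In each of the 13 libraries Cd74 was the highest of the members per length.

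Ciita was low throughout. It measured 1.16 and 1.07 RPKM in C57Bl/6EiJ TGEMs and 0.083, 0.518 and 1.27 in Balb/cJ TGEMs, with the vehicle library lowest. In iBMDMs reads were found only in JunDKO, at 0.125 and 0.105 RPKM, or 1 and 10 reads, and the other 6 libraries had none. Of the peptide editors, H2-DMa and H2-DMb1 lay below H2-Aa, H2-Ab1 and H2-Eb1 and above Ciita in C57Bl/6EiJ TGEMs. H2-Oa lay below Ciita in every TGEM library. H2-DMa, the alpha chain of H2-DM, measured 5.59 to 10.3 RPKM in TGEMs and 0 to 4.36 in iBMDMs, without overlap. H2-DMb1 measured 1.34 to 26.8 RPKM in TGEMs and 2.30 to 8.73 in iBMDMs, ranges that overlap, and H2-DMb2 and H2-Oa were at most 2.37 and 0.757 RPKM in TGEMs, below their highest iBMDM libraries. The order of the levels in C57Bl/6EiJ vehicle TGEMs ran from Cd74 through H2-Aa, H2-Ab1, H2-Eb1, H2-DMb1, H2-DMa, H2-DMb2 and Ciita to H2-Oa, with H2-Ea-ps at 0. Within it H2-Aa and H2-Ab1 are neighbours that did not keep their order: the ratio of H2-Aa to H2-Ab1 ran from 0.838 in Balb/cJ vehicle TGEMs to 1.51 in a Balb/cJ KLA library. In Scramble iBMDMs only Cd74 (87.6 and 62.1 RPKM) and H2-DMb1 (5.28 and 3.21) exceeded 1 RPKM.

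**Figure D1:**
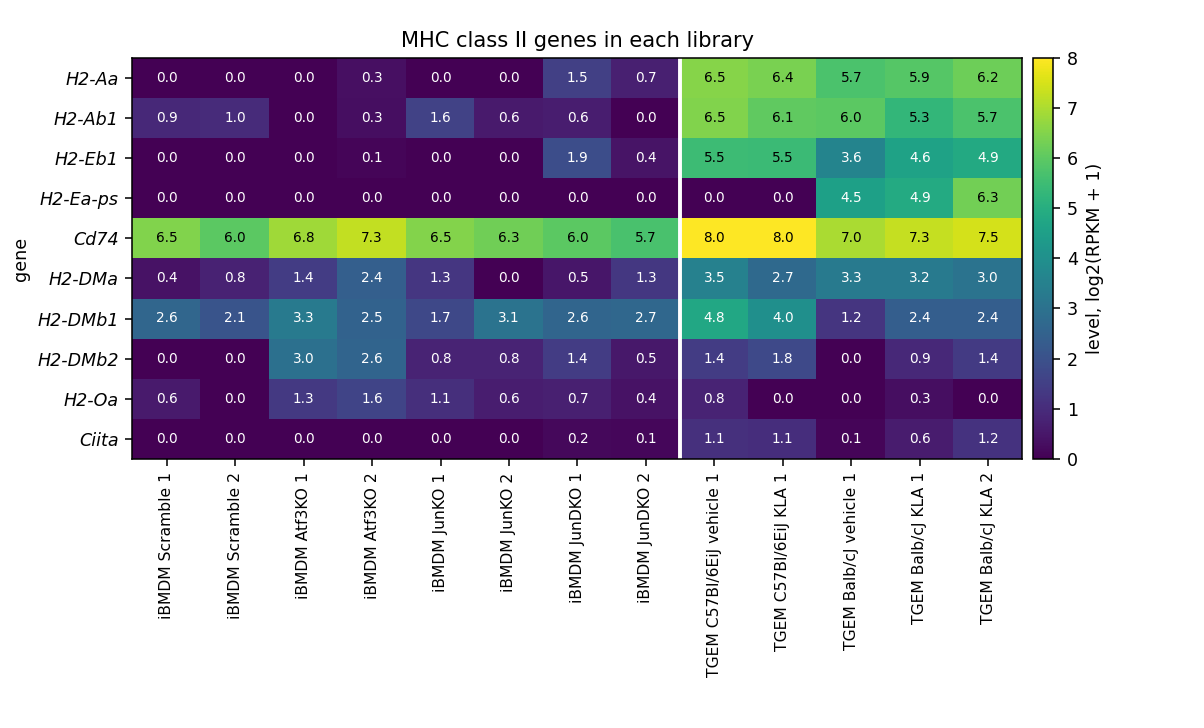
Levels of the 10 class II genes (rows) in each of the 13 libraries (columns), as log2(RPKM + 1), with the value written in each cell and a white line between iBMDMs and TGEMs. H2-Aa, H2-Ab1 and H2-Eb1 are near 0 in iBMDMs and high in TGEMs, Cd74 is high in both, and H2-Ea-ps has values only in the 3 Balb/cJ libraries.

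**Figure D2:**
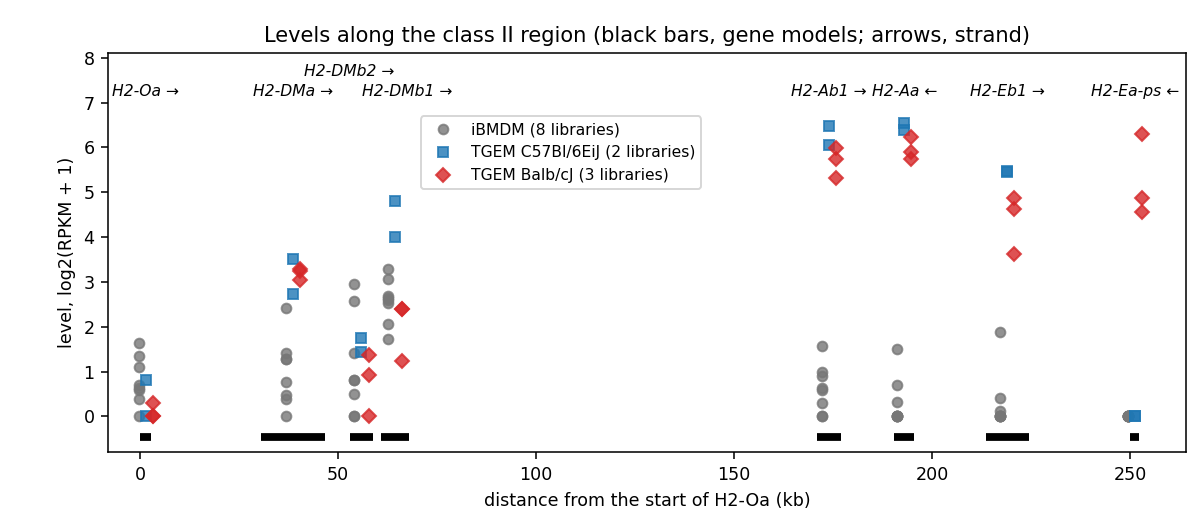
Levels of the 8 members on chromosome 17, as log2(RPKM + 1), against distance in kb from the start of H2-Oa, with 1 point per library and groups offset sideways. The peptide editors at the left differ less between cell types than H2-Ab1, H2-Aa and H2-Eb1 at the right, and H2-Ea-ps, at the far right, is above 0 in Balb/cJ libraries only.

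The C57Bl/6EiJ vehicle TGEM library was compared with the 2 Scramble libraries, which share strain and treatment label, by limma-trend on log2(RPKM + 1). The fit takes the lone TGEM library to be as variable as the groups with replicates. Cell source, culture and the initials and dates in the titles differ together with cell type. Calls needed an adjusted p under 0.05 and a change of 2-fold or more, with 16 RPKM or more on average in one of the groups, the limits of the study. Only genes that averaged 1 RPKM or more across the fitted libraries were tested, and H2-Oa and Ciita fell below this. Of the 8 tested members 5 were called, all higher in TGEMs, against 20.8% of the 10929 genes tested (8.16% called higher), and 7 had an adjusted p under 0.05, all higher, against 42.8% (15.5% higher). H2-Aa, H2-Ab1 and H2-Eb1 passed the filter on low values only through TGEMs, so these counts were bound to include them.

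H2-Aa had a fitted log2 fold change of 6.54 ± 0.35 (SE, limma adjusted p = 9.14e-06). Since Scramble had no read, the fitted value depends on the pseudocount, and against 3 reads over the group H2-Aa was at least 119-fold higher. H2-Eb1 was likewise at least 87.4-fold higher (fitted 5.47 ± 0.50 SE, limma adjusted p = 9.19e-05). H2-Ab1 had 4 reads in Scramble and a ratio of mean RPKM of 95.1 (5.53 ± 0.44 SE, limma adjusted p = 5.16e-05). These 3 chains thus differed far more than Cd74, which was 3.41 times higher by mean RPKM (1.78 ± 0.29 SE, limma adjusted p = 0.00166), and H2-DMb1, which was 6.32 times higher (2.44 ± 0.53 SE, limma adjusted p = 0.00665). Whether the changes of 2 members differ from each other was not tested. H2-DMa rose without reaching 16 RPKM, with a ratio of read rates of 20.6 that rests on 3 Scramble reads (exact 95% interval 6.96 to 101, counting error only). H2-DMb2 passed the adjusted p as well (1.43 ± 0.40 SE, limma adjusted p = 0.0196), but lost it in 4 of 10 alternatives, those without either Scramble library among them (0.0526 and 0.0579, range 0.00299 to 0.13). Ciita, with 68 reads in the TGEM library and none in Scramble, was at least 7.24-fold higher, and without the filter on low values its log2 fold change was 1.11 ± 0.21 (SE, limma adjusted p = 0.00996). H2-Ea-ps had no read in either group.

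The rest of the pathway was followed with lists of genes, which were chosen with earlier results of these data known. Their counts are therefore a description and no independent test. Of 9 genes for endosomal processing all 9 were called higher in TGEMs, with a median log2 fold change of 2.37, beside 8.16% of all tested genes called higher. The 4 with the largest change were Ctsh (4.99), a protease of the cathepsin family, Ifi30 (2.97), which reduces disulfide bonds in antigens, Cst3 (2.80), a secreted cathepsin inhibitor, and Ctss (2.56), the cathepsin that removes the invariant chain in many presenting cells. Of 7 genes of the promoter complex none was called by limma and Rfx5 alone, a subunit of RFX, passed the adjusted p, lower in TGEMs by 1.49 on the log2 scale with 1.62 against 6.36 RPKM. Of 9 genes that act upstream of Ciita none was called by limma and 1, Irf4, passed the adjusted p (1.83). Irf4 passed the filter on low values only through TGEMs, so its test favours a difference. Of 3 tested genes of surface turnover Cd83, which protects class II molecules from ubiquitination, was called higher (4.51) and March1, the ligase that ubiquitinates them, passed the adjusted p (1.10). Genes in these sentences that passed the adjusted p without a call were named after their values were seen. None of 5 tested neighbours in the class II region passed in limma, among them Psmb8, Psmb9, Tap1 and Tap2 of the class I pathway.

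Markers of other cell types moved with this comparison. Of 6 B cell markers (Ms4a1, Cd79a, Cd79b, Pax5, Cd22 and Blk) all 6 had reads in at least 1 TGEM library (Pax5 was at 0 in C57Bl/6EiJ vehicle TGEMs), at a summed level of 34.4 to 52.7 RPKM, against 0 to 0.943 in iBMDMs, where Cd79b, Pax5 and Blk were at 0. Most of that sum was Cd22, and without it the TGEM libraries held 10.0 to 24 RPKM. Of 8 dendritic cell markers the sum was 69.3 to 164 RPKM in TGEMs and 0.299 to 4.00 in iBMDMs. It was mostly Itgax, an integrin that macrophages also express, at 67.2 to 160 RPKM, while Flt3 and Zbtb46 were at most 0.217 and 1.13 RPKM in TGEMs and at 0 in iBMDMs. Both kinds of cell can express class II genes. Their part in the TGEM levels was not tested, and in bulk samples fewer cells of a type and less RNA per cell cannot be told apart. Of the 6 macrophage markers, 2 were called higher (Cd68 and Mertk) and 4 lower (Adgre1, Csf1r, Itgam and Fcgr1) in TGEMs by limma. T and NK cell markers summed to at most 2.27 RPKM in TGEMs and 0.894 in iBMDMs. Granulocyte and mast cell markers summed to 6.96 to 15.0 RPKM in TGEMs and 0.546 to 41.1 in iBMDMs, and resident peritoneal macrophage markers to 5.69 to 10.9 and 2.23 to 10.6. Of the resident markers Gata6, a factor of peritoneal macrophages, passed the adjusted p (limma adjusted p = 0.000142), with 5.64 RPKM in the C57Bl/6EiJ vehicle library, 2.43 to 5.64 over all TGEMs and no read in any iBMDM library. Gata6 passed the filter on low values only through TGEMs, so its test favours a difference. No other gene of that list passed. Timd4 and Lyve1 had no read in either group compared, Icam2 did not pass (0.74), and Selp was too low to be tested. Gata6 was named after its values were seen, and its part in the class II levels was not tested.

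**Figure D3:**
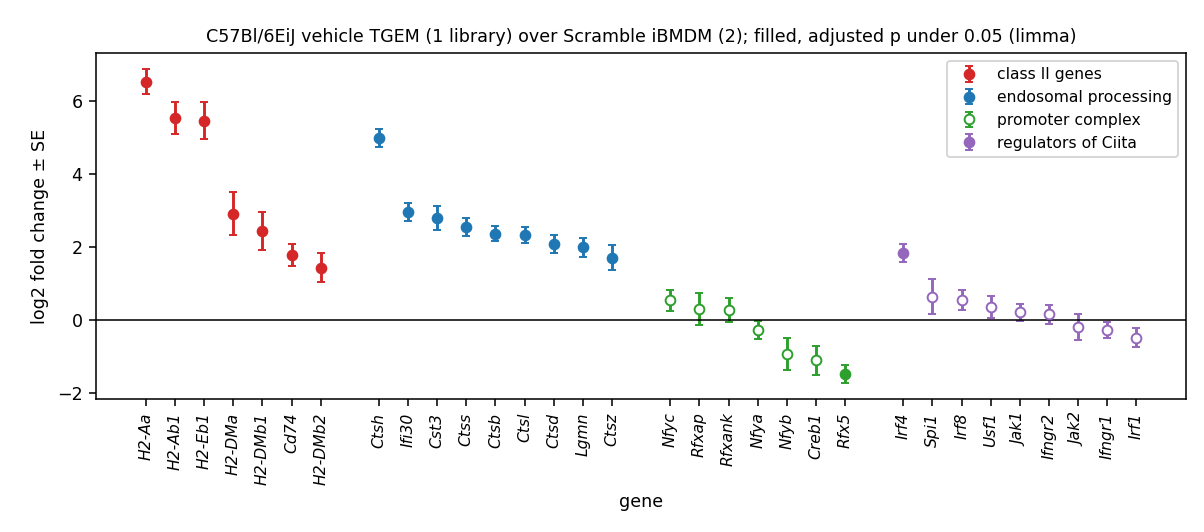
Log2 fold change ± SE of the C57Bl/6EiJ vehicle TGEM library over the 2 Scramble libraries, on the log2(RPKM + 1) scale, for 7 tested class II genes (H2-Ea-ps, at 0 in both groups, is not drawn) and 3 lists of pathway genes, with filled points for a limma adjusted p under 0.05. Class II and endosomal genes lie above 0, from 1.43 to 6.54 and from 1.71 to 4.99, while the promoter complex and the regulators of Ciita scatter around 0.

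In the AP-1 comparisons only 4 members reached 1 RPKM on average over the 8 iBMDM libraries and were tested, namely Cd74, H2-DMa, H2-DMb1 and H2-DMb2. H2-DMa and H2-DMb2 did so only through the libraries labelled Atf3KO, so their tests are biased towards a difference there. The 4 groups shared a single fit with 4 residual degrees of freedom, and the 3 comparisons with Scramble share its libraries. The comparison with Scramble asks which of these genes change when ATF3, JUN or JUND is targeted.

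H2-DMb2 was highest in the libraries labelled Atf3KO. Its level there was 6.71 and 4.97 RPKM (23 and 28 reads). Scramble had no read, JunKO 0.753 and 0.749 RPKM and JunDKO 1.65 and 0.418 RPKM. Both Atf3KO libraries lay above all 6 others. Its fitted log2 fold change over Scramble was 2.76 ± 0.37 (SE, limma adjusted p = 0.00159), and against 3 reads over the Scramble group it was at least 5.32-fold higher. It stayed below 16 RPKM and so was not called. The gene was tested only because of its level in these libraries, so this fit and its alternatives favour a difference there. Without Atf3KO replicate 2, and so among libraries of 1 date, the change was 2.95 (limma adjusted p = 0.012), within a range of 0.000917 to 0.0140 over 15 alternatives. Because reads can move between the 2 copies, the summed level of H2-DMb1 and H2-DMb2 is given too: it was 15.4 and 9.73 RPKM in Atf3KO, above the 5.28 and 3.21 of Scramble, the 3.05 and 8.06 of JunKO and the 6.70 and 5.81 of JunDKO.

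Cd74 was also highest in the libraries labelled Atf3KO. Its level there was 115 and 155 RPKM. Scramble had 87.6 and 62.1 RPKM, JunKO 89.5 and 75.5 and JunDKO 61.6 and 50.8. The Atf3KO libraries did not overlap with any other group. The JunDKO libraries lay below all others, by a narrow margin of 61.6 to 62.1 RPKM from Scramble replicate 2. The log2 fold change over Scramble was 0.84 ± 0.24 (SE, limma adjusted p = 0.0232), under 2-fold. This passed the adjusted p with all libraries but not without Atf3KO replicate 2 (0.63, limma adjusted p = 0.115), that is, within 1 date, nor without Scramble replicate 2 (0.60, 0.154), and after removal of each library's GC trend it was 0.35 (0.0503), with a range of 0.00185 to 0.154 over 15 alternatives. With only the 2 groups compared in the fit the adjusted p was 0.0609 by limma. Without Scramble replicate 1 (1.09, limma adjusted p = 0.0291) or without Atf3KO replicate 1 (1.06, 0.0217) the change exceeded 2-fold and Cd74 was called.

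H2-DMa and H2-DMb1 were less clear. H2-DMa measured 1.65 and 4.36 RPKM in Atf3KO (12 and 52 reads) and 0.314 and 0.708 in Scramble (1 and 2 reads), without overlap. Most of the Atf3KO reads came from replicate 2, the library of a later date. The ratio of read rates was 6.68 (exact 95% interval 2.18 to 33.2, counting error only), but the log2 fold change of 1.33 ± 0.55 did not pass (SE, limma adjusted p = 0.0823). With quantile normalization it passed (1.66, limma adjusted p = 0.0244), also against JunKO (1.63, 0.0300) and JunDKO (1.46, 0.0381). H2-DMb1 measured 8.73 and 4.76 RPKM against 5.28 and 3.21, with overlap (0.54 ± 0.45 SE, limma adjusted p = 0.355). H2-Oa, too low to be tested, measured 1.53 and 2.12 RPKM in Atf3KO (7 and 16 reads) and at most 1.13 in the other 6 libraries. Without the filter on low values it differed from Scramble by a log2 fold change of 1.20 ± 0.27 (SE, limma adjusted p = 0.0208), resting on 1 Scramble read. Thus in the libraries labelled Atf3KO 2 of 4 tested members had an adjusted p under 0.05, both higher, against 41.2% of the 10691 genes tested (20.7% higher), and none was called by limma, against 12.5%. At an unadjusted p under 0.05 there were 3, against 51.8%, and by limma-voom none was called either. The share is near the background of this comparison and includes H2-DMb2, which was tested only through these libraries. It is no result about the members as a group. The 3 chain genes showed no such level in Atf3KO, with H2-Aa at 0 and 0.26 RPKM, H2-Ab1 at 0 and 0.233 and H2-Eb1 at 0 and 0.083.

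No tested member passed the test between JunKO and Scramble. By limma 0 of 4 were called, against 0.196% of all tested genes, and 0 had an adjusted p under 0.05, against 0.281%, with 0 at an unadjusted p under 0.05 (7.88%) and 0 by limma-voom on the recovered reads. The 95% interval of the log2 difference ran from -0.39 to 0.70 for Cd74, from -1.20 to 1.31 for H2-DMa, from -1.02 to 1.07 for H2-DMb1 and from -0.05 to 1.67 for H2-DMb2, so that a change of 2-fold in an H2-DM gene lies within the interval. H2-Ab1 measured 1.98 and 0.492 RPKM, or 4 and 1 reads, while H2-Aa, H2-Eb1 and Ciita had no read in either library.

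JunDKO likewise had 0 of 4 members called (4.97% of all tested genes) and 0 with a limma adjusted p under 0.05 (11.7%), with 1 at an unadjusted p under 0.05 (27.5%), H2-DMb2, and 0 by limma-voom. With a pseudocount of 0.1 H2-DMb2 passed the adjusted p (3.25, limma adjusted p = 0.0260), on 8 JunDKO reads and none in Scramble. Cd74 had a log2 fold change of -0.39 ± 0.24 (SE, limma adjusted p = 0.320), whereas the median over all tested genes was 0.23. After removal of the GC trend Cd74 passed, at -0.64 (limma adjusted p = 0.00916, range over 14 alternatives 0.00916 to 0.783). JunDKO was also the only iBMDM group in which both libraries held reads of H2-Aa (3 and 12 reads), H2-Eb1 (7 and 10 reads) and Ciita (1 and 10 reads). In RPKM these are 1.82 and 0.613 for H2-Aa and 2.71 and 0.326 for H2-Eb1, above the other 6 libraries in both replicates. JunDKO replicate 2 is the deepest of all libraries and replicate 1 the shallowest. The levels of replicate 2 lay below what 3 reads over the Scramble group amount to, 0.776 RPKM of H2-Aa and 0.496 of H2-Eb1, so the difference rests on the 3 and 7 reads of replicate 1 and no fold is given. Without the filter on low values neither passed, with a log2 fold change of 1.09 ± 0.26 for H2-Aa (SE, limma adjusted p = 0.0561) and 1.15 ± 0.43 for H2-Eb1 (limma adjusted p = 0.171), while H2-Aa passed between Atf3KO and JunDKO, as given with that comparison. Both stayed far below any TGEM library.

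The knockouts were then set against each other in the same fit, with the same bias of H2-DMa and H2-DMb2 towards a difference in Atf3KO. Cd74 was called higher in Atf3KO than in JunDKO (1.24 ± 0.24 SE, limma adjusted p = 0.00490), the only member of 4 called there, against 12.2% of all tested genes (5.5% called higher), and H2-DMb2 also had an adjusted p under 0.05 (1.81 ± 0.37 SE, limma adjusted p = 0.00680), against 40.7% (14.9% higher). Without the filter on low values 4 members passed there, with H2-Aa lower in Atf3KO (-0.93 ± 0.26 SE, limma adjusted p = 0.0409; mean 0.130 against 1.22 RPKM) and H2-Oa higher (0.95 ± 0.27 SE, limma adjusted p = 0.0421; 1.82 against 0.465 RPKM), both on few reads. Without JunDKO replicate 2 Cd74 lost its call (1.10, limma adjusted p = 0.0518, range over 15 alternatives 0.000421 to 0.0518), and after GC correction its difference was 1.00 (limma adjusted p = 0.0007), just short of the 2-fold limit. Between Atf3KO and JunKO 0 members were called, against 9.71%, with 3 at an unadjusted p under 0.05 (48.1%). By limma H2-DMb2 alone passed the adjusted p, against 35.5% of all tested genes, of which 17% were higher (1.95 ± 0.37 SE, limma adjusted p = 0.00690). Cd74 missed it there (0.69 ± 0.24 SE, limma adjusted p = 0.0528), and 2 members reached it under some alternatives, among them the one without Atf3KO replicate 1. Between JunDKO and JunKO 0 of 4 were called (3.5%) and 0 passed (8.14%) by limma, with 1, Cd74, at an unadjusted p under 0.05 (24.9%) and 0 by limma-voom. After GC correction Cd74 passed there (-0.73, limma adjusted p = 0.00636).

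**Figure D4:**
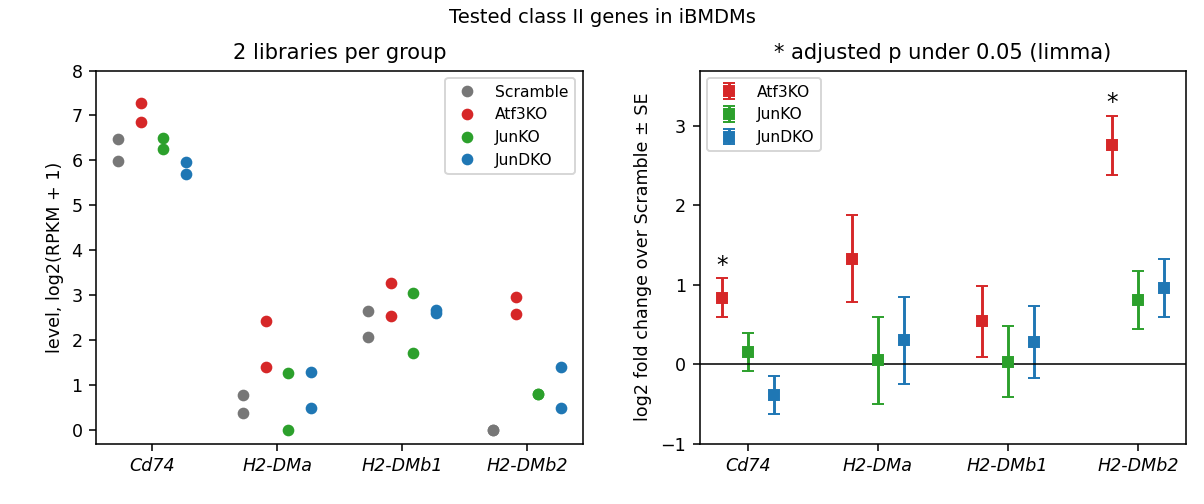
The 4 tested members in iBMDMs: left, the level in each of 2 libraries per group as log2(RPKM + 1), and right, the log2 fold change over Scramble ± SE from limma, with a star for an adjusted p under 0.05. H2-DMb2 (2.76) and Cd74 (0.84) in Atf3KO carry the stars, and no value of JunKO or JunDKO does. H2-DMa and H2-DMb2 were tested only through their level in Atf3KO.

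The pathway lists held 2 called genes in the libraries labelled Atf3KO. Usf1, a factor that binds a promoter of Ciita, was called higher (1.33, limma adjusted p = 0.00216), 1 of 8 tested genes upstream of Ciita. Tap1, a peptide transporter of the class I pathway encoded between the class II genes, was called higher as well (1.56, limma adjusted p = 0.00464), 1 of 5 tested neighbours. Of 7 genes of the promoter complex none was called and 3 passed the adjusted p, with Nfyc (1.46) and Rfx5 (0.70) higher and Nfya (-0.77) lower. Of 9 endosomal genes none was called and 4 passed, with Lgmn (0.80) higher and Ctsh (-2.17), Ctss (-0.83) and Ifi30 (-0.65) lower. Jak2 (-1.32) and March1 (-1.63) were lower too. Over all genes tested 12.5% were called and 41.2% passed in this comparison, so that the shares of the lists are near the background and are no result about the lists. The genes that passed without a call were named after their values were seen.

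In JunDKO the called genes were Cd83, Lgmn and Cst3. Cd83 measured 27.2 and 25.9 RPKM. Scramble had 0.487 and 1.37 RPKM of it, JunKO 0.552 and 2.19 and Atf3KO 1.82 and 1.62. The change from Scramble was 3.88 ± 0.38 on the log2 scale (SE, limma adjusted p = 0.000638), and that over JunKO was 3.63 (limma adjusted p = 0.00114). Lgmn, an endosomal protease that starts the cutting of the invariant chain, rose from 235 and 171 to 792 and 686 RPKM (1.87 ± 0.20 SE, limma adjusted p = 0.000994), and Cst3 by 1.22 (limma adjusted p = 0.0201). Thus 2 of 9 endosomal genes were called, and 3 passed the adjusted p with Ctsl (0.70), beside 4.97% called and 11.7% passing over all genes. Nfyc passed it among the 7 genes of the promoter complex (1.09). In JunKO no gene of the 5 pathway lists passed by limma.

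Compared directly, Atf3KO lay below JunDKO in Cd83 (-3.34), Ctsl (-1.18), Ifi30 (-1.09), Lgmn (-1.07) and Nfya (-1.18) and above it in Tap1 (1.26), all called by limma, where 12.2% of all tested genes were called. Atf3KO lay above JunKO in Usf1 (1.36, limma adjusted p = 0.00259) and Tap1 (1.08, 0.0216), the only called genes of the 5 pathway lists there, against 9.71% of all tested genes. Between JunDKO and JunKO, Lgmn was called higher in JunDKO (1.10, limma adjusted p = 0.0155) beside Cd83, against 3.5%. B cell markers summed to at most 0.943 RPKM in every iBMDM library and dendritic cell markers to at most 4.00, both far below their TGEM sums. Scramble had the highest dendritic cell sums, 4.00 and 3.17 RPKM, and JunDKO the lowest, 0.703 and 0.299. Its only tested gene, Itgax, passed lower in JunDKO than in Scramble (-1.53, limma adjusted p = 0.0131), with a mean of 0.392 against 3.01 RPKM, and higher in Atf3KO than in JunDKO (1.13, 0.0174) and JunKO (0.87, 0.0499). Single markers of macrophages and granulocytes moved as well, and the markers named here were chosen after their values were seen. Of the 6 macrophage markers 2 passed in Atf3KO against Scramble, Mertk and Cd68, both higher, and 2 in JunDKO, Mertk higher and Itgam lower. Mertk, a receptor for the uptake of dead cells, was called higher in Atf3KO (mean 26.7 RPKM, limma adjusted p = 0.000916) and in JunDKO (36.5 RPKM, 0.000509) than in Scramble (7.65 RPKM). Cd68, a lysosomal protein of macrophages, had a log2 fold change of 0.72 in Atf3KO (limma adjusted p = 0.0441), with a mean of 672 against 410 RPKM, beside the 0.84 of Cd74. Itgam, an integrin chain of myeloid cells, passed in JunDKO (-0.99, limma adjusted p = 0.00598), with a mean of 216 against 431 RPKM. S100a8, a calcium-binding protein of granulocytes, was listed at 0 in both JunDKO libraries and had a mean of 34.0 RPKM in Scramble (called, limma adjusted p = 3.47e-05). Icam2, a marker of resident peritoneal macrophages, passed in Atf3KO (1.73, limma adjusted p = 0.00117), with a mean of 10.2 against 2.40 RPKM, but the other 4 markers of that list did not go with it: Gata6, Timd4 and Lyve1 were at 0 in both groups and Selp had 0.033 against 0.312 RPKM. Against JunKO, Mertk was called higher in both Atf3KO (1.02) and JunDKO (1.46). Itgam was called lower in JunDKO than in JunKO (-1.27) and Atf3KO (1.08 higher there), and S100a8 was called in both of these comparisons, with means of 23.4 and 31.5 RPKM against 0. Fewer gene models had reads in the libraries labelled Atf3KO, 10425 and 10631, while the remaining 6 iBMDM libraries had 11884 to 12533. The part of these differences in the results above was not tested.

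Within TGEMs the strains differed most in H2-Ea-ps. It had no read in any of the 10 C57Bl/6EiJ libraries of either cell type, and measured 22.5 RPKM in Balb/cJ vehicle TGEMs and 28.5 and 77.4 in the Balb/cJ KLA libraries. Against 3 reads over the group of 2 C57Bl/6EiJ TGEM libraries it was at least 153-fold higher in Balb/cJ. That bound leans on the deeper vehicle library, where 3 reads amount to 0.338 RPKM, against 1.19 in the KLA library. The fitted log2 difference, with treatment as covariate, was 5.14 ± 0.45 (SE, limma adjusted p = 0.00203). The gene passed the filter on low values only through Balb/cJ. The adjusted p rose to 0.0549 without the C57Bl/6EiJ KLA library and to 0.0629 without the Balb/cJ vehicle library, within a range of 4.6e-05 to 0.0629 over 13 alternatives, while the difference stayed between 4.55 and 5.59 when any single library was left out.

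H2-Ea-ps stood at 1.99, 1.21 and 2.75 times the level of H2-Eb1 in the Balb/cJ vehicle and KLA libraries. H2-Eb1, which encodes the partner chain, was lower in all 3 Balb/cJ libraries than in both C57Bl/6EiJ libraries, with 11.3 to 28.1 against 42.9 and 43.3 RPKM. Its log2 difference of -1.20 ± 0.32 did not pass (SE, limma adjusted p = 0.105) except by limma-voom (-1.14, adjusted p = 0.0303). With 1 library left out the difference ran from -1.85 to -0.72.

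H2-DMb1 was lower in Balb/cJ. It measured 26.8 and 14.9 RPKM in C57Bl/6EiJ and 1.34, 4.23 and 4.29 in Balb/cJ, without overlap, and was called (-2.44 ± 0.43 SE, limma adjusted p = 0.0373). In 7 of 14 alternatives it was no longer called, among them those without the C57Bl/6EiJ vehicle library (-1.60, limma adjusted p = 0.130), without the Balb/cJ vehicle library (-1.60, 0.190) and without the first Balb/cJ KLA library (-2.58, 0.200), with a range of 0.00527 to 0.200. With 1 library left out the log2 difference of H2-DMb1 ran from -3.57, without the C57Bl/6EiJ KLA library, to -1.60. The sum of H2-DMb1 and its copy H2-DMb2 was lower in Balb/cJ too, with 28.5 and 17.3 RPKM in C57Bl/6EiJ and 1.34, 5.12 and 5.85 in Balb/cJ. H2-DMa, the partner chain, did not follow (10.3 and 5.59 RPKM against 8.80, 8.50 and 7.28; 0.16 ± 0.26 SE, limma adjusted p = 0.753). As a result the summed beta chains stood at 2.76 and 3.10 times H2-DMa in C57Bl/6EiJ and at 0.152 to 0.804 times in Balb/cJ.

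The other members had no difference that passed. Cd74 measured 256 and 252 RPKM in C57Bl/6EiJ and 126, 157 and 178 in Balb/cJ, without overlap (-0.77 ± 0.27 SE, limma adjusted p = 0.164). H2-Aa (-0.53 ± 0.28 SE, limma adjusted p = 0.308) was also lower in each Balb/cJ library than in both C57Bl/6EiJ libraries, as was H2-Ab1 (-0.52 ± 0.27 SE, limma adjusted p = 0.307), by a narrow margin of 62.3 to 65.9 RPKM. Of 8 tested members 2 were called, 1 higher (0.386% of all tested genes) and 1 lower (0.772%), against 1.16% of the 10357 genes tested, and these 2 also made up those with an adjusted p under 0.05 (2.31%). The 1 called higher is H2-Ea-ps, which was tested only because of its level in Balb/cJ, so that its call was bound to be counted and its share is no result. No gene of the 5 pathway lists passed by limma.

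Strain cannot be told apart from the genome used for alignment, since Balb/cJ reads were aligned to a genome of that strain, nor from the date in the titles. The macrophage marker Csf1r was called lower in Balb/cJ (-1.37, limma adjusted p = 0.0483). Of the 6 macrophage markers 5 were lower there and 1 higher (0.44), with a median log2 difference of -1.17, beside -0.65 for the tested members. B cell markers summed to 40.6 and 34.4 RPKM in the C57Bl/6EiJ libraries and 47.7, 48.4 and 52.7 in those of Balb/cJ, and dendritic cell markers to 159 and 164 against 69.3 to 102. The part of these differences in the class II levels was not tested.

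**Figure D5:**
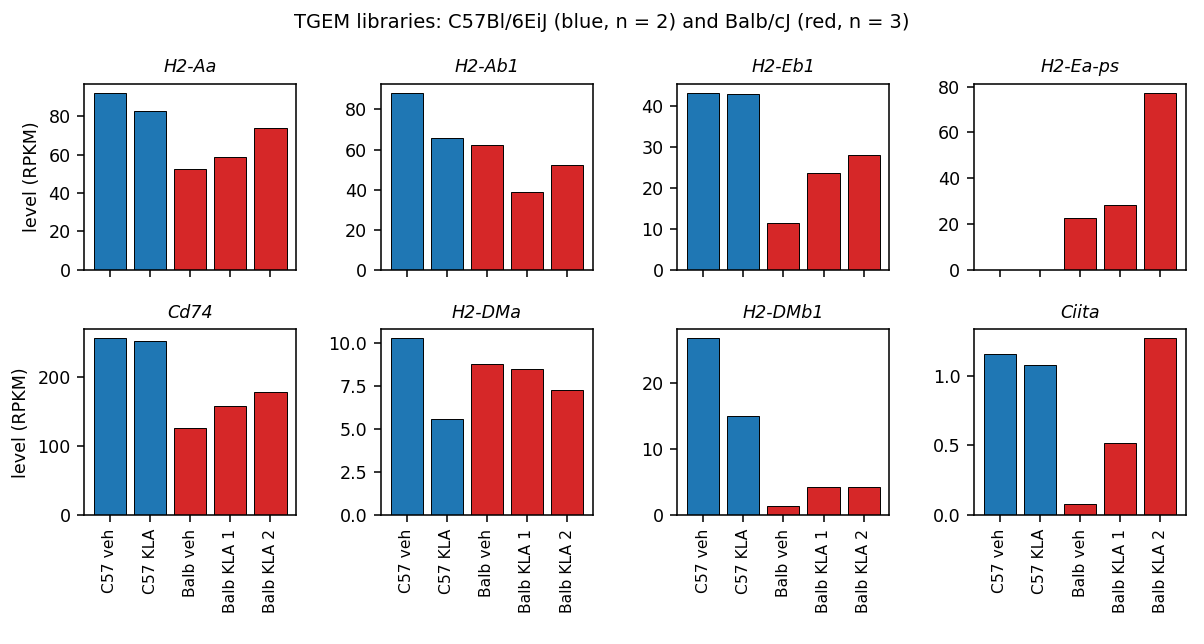
RPKM of 8 members in each of the 5 TGEM libraries, 1 bar per library, C57Bl/6EiJ in blue and Balb/cJ in red, with axes from 0 that differ between panels. H2-Ea-ps is at 0 in both C57Bl/6EiJ libraries, and H2-DMb1 falls from 26.8 and 14.9 RPKM in C57Bl/6EiJ to at most 4.29 in Balb/cJ.

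No class II gene passed the test for a difference after 1 h of KLA. With strain as covariate, 0 of 8 tested members were called by limma (1.13% of all tested genes) and 0 had an adjusted p under 0.05 (1.53%), with 0 at an unadjusted p under 0.05 (15%) and 0 by limma-voom. The median log2 difference of the tested members was 0.27, beside -0.15 over all genes. H2-Aa went from 92.3 to 82.8 RPKM in C57Bl/6EiJ and from 52.3 to 58.5 in the Balb/cJ pair of the same date, with 73.8 in the second Balb/cJ KLA library (0.12 ± 0.28 SE, limma adjusted p = 0.864). H2-Ab1 was lower with KLA in every library, at 65.9 against 88.4 RPKM in C57Bl/6EiJ and 38.7 and 52.3 against 62.3 in Balb/cJ (-0.44 ± 0.27 SE, limma adjusted p = 0.465). The interval of the log2 difference was -1.07 to 0.19 for H2-Ab1, -0.53 to 0.77 for H2-Aa, -0.12 to 1.39 for H2-Eb1 and -0.40 to 0.85 for Cd74, so that a change of 2-fold in H2-Ab1 or H2-Eb1 lies within the interval.

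H2-Eb1 was 43.3 and 42.9 RPKM in C57Bl/6EiJ vehicle and KLA, and in Balb/cJ 11.3 RPKM with vehicle and 23.6 and 28.1 with KLA (0.63 ± 0.32 SE, limma adjusted p = 0.395). H2-DMb1 was lower with KLA in C57Bl/6EiJ, by 0.80 on the log2 scale, and higher in the Balb/cJ pair of the same date, by 1.16. Cd74 was nearly equal in C57Bl/6EiJ (256 and 252 RPKM) and higher in both Balb/cJ KLA libraries than in their vehicle library (126 against 157 and 178). The interaction of KLA and strain, with 1 residual degree of freedom, passed in no member by limma, nor in any of the 10357 genes tested (0%), of which 835 had an unadjusted p under 0.05 (8.06%), H2-DMb1 among them (1.97 ± 0.46 SE, limma adjusted p = 0.494). In 5 members, H2-Aa, H2-Eb1, H2-DMb1, Cd74 and Ciita, the C57Bl/6EiJ KLA library lay below its vehicle library and both Balb/cJ KLA libraries above theirs. On the log2 scale the C57Bl/6EiJ falls were slight in H2-Eb1 (-0.01), Cd74 (-0.02) and Ciita (-0.06) and larger in H2-Aa (-0.16) and H2-DMb1 (-0.80). The share of all genes with this pattern was not counted, so the number is no result about the members. For Ciita the levels were 1.16 and 1.07 RPKM in C57Bl/6EiJ, and 0.083 RPKM (1 read) against 0.518 and 1.27 in Balb/cJ, with an interaction of 0.83 ± 0.56 without the filter on low values (SE, limma adjusted p = 0.603).

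The signal itself was visible in 2 genes of the pathway lists. Irf1, an interferon-induced factor that acts on a promoter of Ciita, was called (3.74 ± 0.26 SE, limma adjusted p = 0.000775), with 14.7 against 249 RPKM in C57Bl/6EiJ and 21.1 against 245 and 272 in Balb/cJ. Cd83 was called as well (3.64 ± 0.35 SE, limma adjusted p = 0.00297), with 41.8 against 317 RPKM in C57Bl/6EiJ and 33.3 against 582 and 687 in Balb/cJ. They were 1 of 9 regulators of Ciita and 1 of 3 genes of surface turnover. Of the 7 genes of the promoter complex, 9 endosomal genes and 5 neighbours none passed by limma, with the medians at 0.01, 0.05 and 0.52.

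Genes whose pattern was most like the mean of H2-Aa, H2-Ab1, H2-Eb1 and Cd74 were ranked by Pearson's r of log2(RPKM + 1), as a description. Over all 13 libraries the first 5 were P2rx4 (33.2 to 47.9 RPKM in iBMDMs and 148 to 254 in TGEMs), Amz1, F7, Tmem178 and Jup. The libraries fall into 2 separate sets, iBMDMs and TGEMs, so no pooled r is given. Over the 8 iBMDM libraries they were 9430038I01Rik (r = 0.964), Alad (0.916), Mir5129 (0.913), Mum1 (0.896) and Gtf2ird2 (0.895), and 3 of 10687 genes exceeded an r of 0.9. These libraries share a line and differ in depth, and the 3 chain genes hold few reads in them.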

How the data were processed

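PolyA RNA-seq values were available for 13 of 17 samples, and 4 GRO-seq samples were not analysed here. The values are RPKM per gene model as deposited: the authors aligned reads with STAR to mm10, or to a Balb/cJ genome made from it, and counted exonic reads with HOMER, 1 column per library (tool versions not given in the sources used here; the column names say FPKM). Reads were recovered from the RPKM steps (100.0% of values up to 50 reads were whole within 0.05 or rounding).

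Groups followed the titles and genotype labels. limma 3.58.1 (R 4.3.3) was fitted with a trend to log2(RPKM + 1) over all genes with a mean of at least 1 RPKM, with Benjamini-Hochberg adjustment, so a fold change understates that of a low gene. The 8 iBMDM libraries shared a fit, the 5 TGEM libraries another with strain and treatment (2 residual degrees of freedom), and all 13 a separate one for the cell types. Scripts were tested on simulated data. Bounds set the lower of the mean RPKM and the pooled read rate against 3 reads over a group, and bounds and intervals of read ratios cover counting error only. From the 5 pathway lists called genes were named, at most 4 per list and comparison, and marker genes were named after their values were seen. Alternatives were the pseudocount (0.1 or 5), no filter, equal medians, quantile normalization, limma-voom on recovered reads, removal of the GC trend, a replicate block, other sets of libraries in the fit and leaving out each library. The members and lists were chosen with earlier results of these data known. From the lists of B cell markers and of regulators of Ciita 1 gene each is not reported here, and the counts and sums leave it out. No columns of other samples were present.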

Additional observations from a re-analysis of the deposited data

How the results depend on the processing

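Of 702 alternative values for 55 single-gene results, 641 kept their direction and side of the threshold, 18 lost the threshold, 10 gained it and 33 changed sign, none of the last being called. The cause of these changes was not tested. The number of members called went from 0 to 1 without the 16 RPKM minimum in Atf3KO against Scramble and against JunKO, and from 1 to 2 against JunDKO, where it was 0 after GC correction. For the strains it went from 2 to 1 with no filter, equal medians or quantile normalization and to 0 after GC correction, where H2-DMb1 lost its call (limma adjusted p = 0.0619) and H2-Ea-ps, without a GC value, could not be fitted. The number with an adjusted p under 0.05 in JunDKO against Scramble went from 0 to 1 with a pseudocount of 0.1 and after GC correction, and in Atf3KO against JunDKO from 2 to 4 without the filter. With 1 library left out the number called ran from 0 to 1 in Atf3KO against Scramble and against JunDKO, and from 0 to 2 for the strains.

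Signs changed in small, uncalled log2 differences. In JunKO against Scramble H2-DMa was -0.57 with a pseudocount of 0.1, -0.27 by limma-voom and -0.02 after GC correction, and H2-DMb1 was -0.00 with equal medians and by limma-voom and -0.02 with quantile normalization and GC correction. With equal medians H2-DMb1 in JunDKO against Scramble and H2-DMa in JunDKO against JunKO were -0.00, and H2-DMb2 in the latter was -0.10 (-0.89 by limma-voom, -0.03 after GC correction). By limma-voom H2-DMb1 was -0.49 with KLA and the H2-Ea-ps interaction -0.72. With 1 library left out, JunKO against Scramble ran from -0.58 to 0.69 in H2-DMa, -0.09 to 0.40 in Cd74 and -0.64 to 0.69 in H2-DMb1, and JunDKO against Scramble from -0.11 to 0.71 in H2-DMa and -0.01 to 0.56 in H2-DMb1. H2-DMb1 ran from -0.15 to 1.18 in Atf3KO against JunKO and -0.11 to 0.65 against JunDKO. JunDKO against JunKO ran from -0.39 to 0.88 in H2-DMa, -0.30 to 0.60 in H2-DMb2 and -0.42 to 0.91 in H2-DMb1. KLA ran from -0.16 to 0.33 in H2-Aa, -0.02 to 0.41 in Cd74, -0.01 to 1.12 in H2-Eb1, -0.00 to 1.03 in H2-Ea-ps and -0.80 to 1.17 in H2-DMb1, each lowest without the Balb/cJ vehicle library, and the strain difference of H2-DMa from -0.21 to 0.43.

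Same-numbered iBMDM libraries deviated together with r from 0.185 to 0.225 among Scramble, JunKO and JunDKO and from -0.215 to -0.12 between Atf3KO and these, so the numbers were not taken as pairs. With the replicate block H2-DMb2 in Atf3KO against Scramble was 2.76 (limma adjusted p = 0.00303) and Cd74 0.84 (0.0314), and the block moved no count of members passing. With the Atf3KO numbers crossed, chosen after seeing the data, 2 members rather than 1 passed against JunKO. Few reads limit the chain genes, H2-Oa and Ciita in iBMDMs, and the TGEM tests rest on 1 or 2 libraries per arm.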
